A study of Mus musculus with 17 samples.

Results

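Levels of 45 genes of the WNT signalling pathway were followed across all 17 RNA sequencing libraries of a mouse study of mutant p53. The genes were taken by symbol, and all 45 had an entry among the 23420 genes of the count table. They comprise 11 WNT ligands, 13 receptors and coreceptors, 9 secreted inhibitors, 7 genes of the R-spondin axis, and 5 feedback genes and nuclear factors. Every group derives from C57BL/6 knock-in mice whose p53, a tumour suppressor, bears the R172H mutation, so MSC and Mut clones carry that allele too. There were 3 libraries of bone marrow mesenchymal stem cells (MSC 1, 2 and 3), 6 of first-generation lines made from tumours of such cells (TL1) and 4 of second-generation lines (TL2). Second-generation lines were derived from tumours that grew after TL1 cells were injected. Further libraries came from clones labelled as first-generation tumour line clones, 2 with mutant p53 (Mut clones) and 2 with p53 knockout (KO clones). TL1 and TL2 names end in the number given in their titles, with a letter where a number occurs again in a group (TL1 1a, 1b, 2a, 2b, 3a and 3b, and TL2 1, 2a, 2b and 3). All cells were untreated and at passage 2 to 20. The age of the mice, the way the knockout was made and the line each clone came from are not stated in the labels.

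WNT proteins are secreted lipid-modified ligands that bind a Frizzled receptor together with the coreceptor Lrp5 or Lrp6, which stabilizes beta-catenin so that it can act on genes with the factors Tcf7 and Lef1. Other WNT proteins signal without beta-catenin, often through the receptors Ror1 and Ror2. Secreted Sfrp, Frzb, Wif1, Dkk and Notum proteins restrain the pathway outside the cell, R-spondins bound to Lgr receptors raise it by removing the ubiquitin ligases Znrf3 and Rnf43, and Axin2, Nkd1 and Nkd2 act as intracellular feedback. In marrow stroma the pathway is known for favouring bone formation over fat formation.

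Library totals lay between 12215025 and 15962341 counts, and levels are given as CPM, a gene's count relative to the size of its library, with sizes scaled by TMM, a correction for differences in composition. Tumour lines grew on agar-coated plates in medium with leukaemia inhibitory factor and MSC in MSC medium, so culture and cell state cannot be told apart between these groups. Whether the libraries within a group stem from different animals or cultures is not stated, and the p-values reflect only the scatter among these libraries, possibly technical. Transcripts of Trp53, the gene of p53, had levels of 358 and 280 CPM in Mut clones and 80.8 and 89.6 CPM in KO clones. All 12 listed mesenchymal stromal markers reached 1 CPM in MSC, and their summed level was 16350 to 22810 CPM there, 3421 to 9674 CPM in tumour lines, 3168 to 5457 CPM in Mut clones and 6456 to 7287 CPM in KO clones. Of these 12, 8 had a lower and 4 a higher mean in tumour lines than in MSC, and Nt5e, Ly6a, Vcam1 and Lepr were the higher ones. Summed epithelial markers reached 439 CPM in TL1 3b, 415 of it Krt19, and 315 CPM in TL2 3, mostly Krt18 and Krt8, against at most 111 CPM in MSC, 109 of it Krt19. Epcam and Cdh1 were at most 0.672 CPM in both of these lines, but Cdh1 reached 10.3 CPM in TL1 1b. Of the 8 epithelial markers, 7 had a higher and 1 a lower mean in tumour lines than in MSC. The 10 macrophage and haematopoietic markers summed to at most 65.0 CPM and 6 endothelial markers to at most 4.50 CPM in any library. The part of these markers in the results on WNT genes was not tested, and in bulk RNA fewer cells of a type and less RNA per cell cannot be told apart. TL1 3a stood apart from the other tumour lines in many WNT genes, and Sfrp2 and Dkk3, where it was highest by far, are given with and without it.

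The 45 genes together took 0.234% to 0.408% of all counts in MSC. They took 0.201% in TL1 3a and 0.0351% to 0.0931% in the other 9 tumour lines, 0.0550% and 0.0591% in the Mut clones, and 0.0902% and 0.0688% in the KO clones. A mean of at least 1 CPM was reached by 40 of the 45 genes in MSC, 33 in TL1, 30 in TL2, 22 in Mut clones and 25 in KO clones, and a mean of at least 100 CPM by 8, 1, 1, 1 and 3. Per kilobase of exon, the most abundant member in MSC was the inhibitor Sfrp2 at 532 CPM per kb, followed by Dkk3 at 122, Sfrp1 at 65.4, the R-spondin Rspo2 at 47.2 and the receptor Fzd2 at 41.4. In tumour lines the mean level per kilobase of Sfrp2 was 43.0, or 7.68 without TL1 3a, and next came Fzd2 at 27.1, the ligand Wnt10b at 12.3, Fzd7 at 11.8 and Tcf7 at 10.1. Without TL1 3a, Dkk2, carried by TL2 3, stood between Fzd7 and Tcf7 in this order at 9.43 CPM per kb. Secreted inhibitors and an R-spondin thus headed the order in MSC, and receptors and a ligand were at or near the head of it in tumour lines, with no test of the order. Wnt2 and Dkk1 were near the limit of detection, with at most 1.45 and 0.380 CPM in any library, and did not pass the count filter in any comparison.

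**Figure D1:**
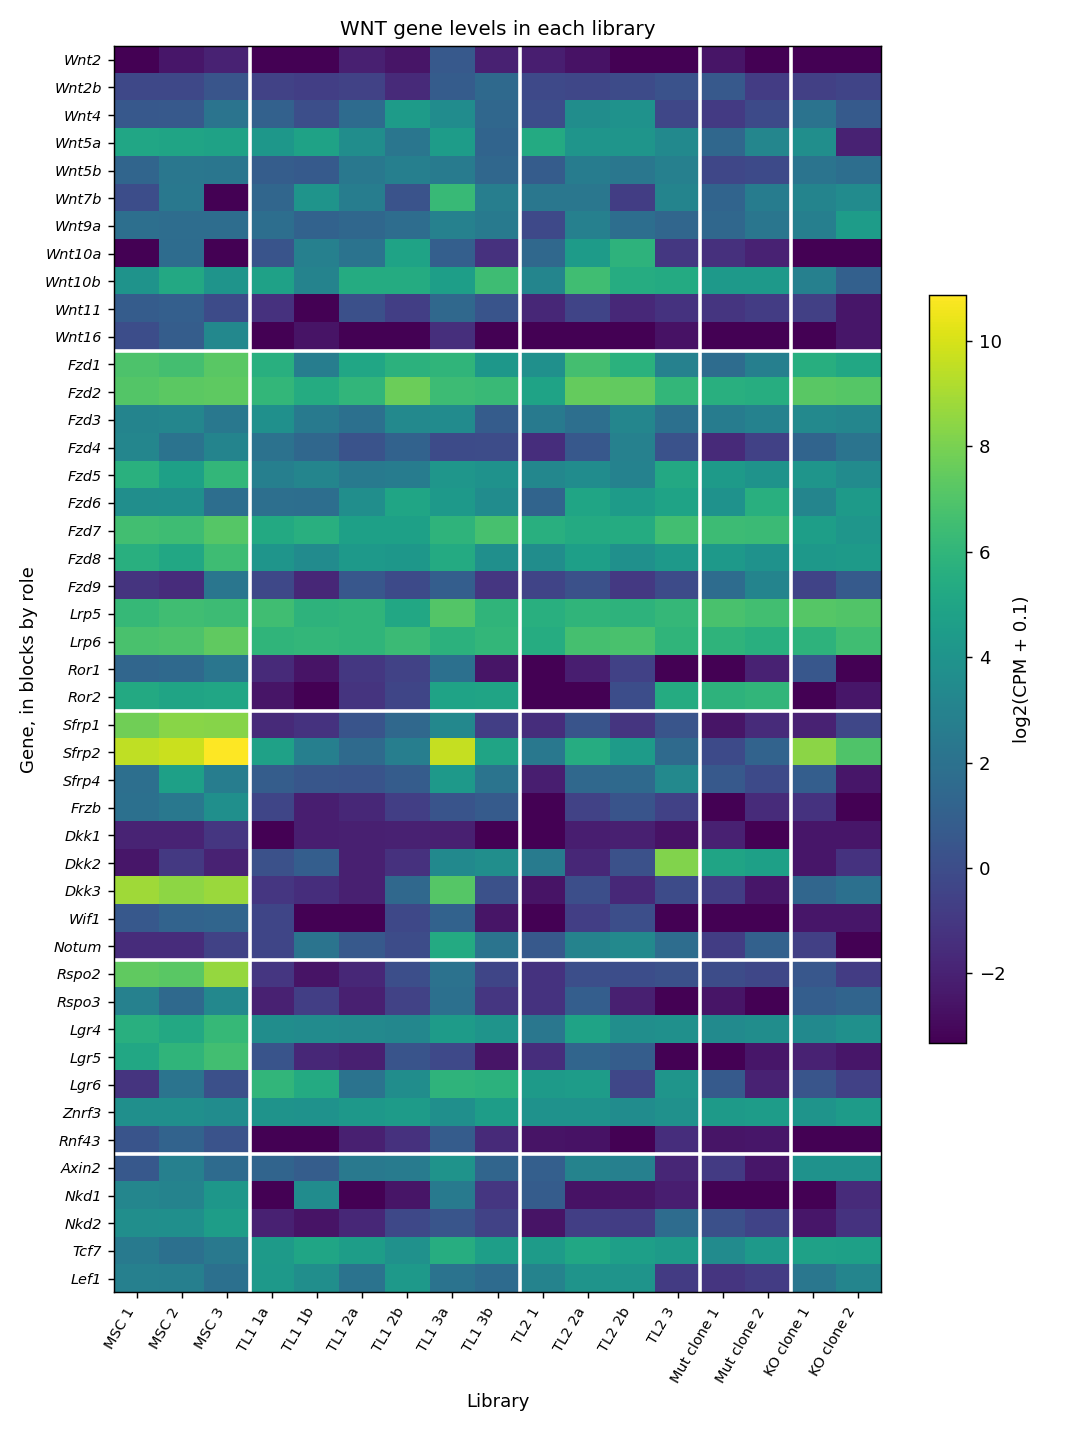
Level of each of the 45 WNT genes (rows, in blocks for ligands, receptors and coreceptors, secreted inhibitors, R-spondin axis, and feedback genes and nuclear factors) in each of the 17 libraries (columns), as log2(CPM + 0.1). White lines part the roles and the groups; Sfrp1, Dkk3, Rspo2 and Lgr5 are high in the 3 MSC libraries, Sfrp2 and Dkk3 also in TL1 3a, and Ror2 in MSC, the 3 tumour lines numbered 3 and the Mut clones.

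The comparison of tumour lines with MSC addressed how the pathway's genes differ between tumour-derived lines and the cells they arose from. The largest falls were in Rspo2, Sfrp1, Dkk3, Wnt16 and Lgr5, each by over 6 on the log2 scale, and Tcf7 rose. Of the 43 members with enough counts to be tested, 11 fell and 1 rose, which is 27.9% called. Among all 13262 genes tested, 8.65% were called, 4.79% lower and 3.86% higher. The median log2 difference of the 43 members was -1.08 and that of all tested genes 0.10. The test was edgeR's quasi-likelihood test with Benjamini-Hochberg adjustment over all tested genes and a threshold of 0.05, on 3 MSC and 10 tumour line libraries. It took the 10 lines as independent, although TL1 and TL2 lines of the same number deviated together. With tumour lines summed per number, 8 of the 12 calls were kept and 3 other members were called. Those of Dkk3, Fzd5, Fzd8 and Lrp6 were lost. For 9 of the 12 called members no tumour line overlapped the MSC libraries, the exceptions being Fzd5, Fzd8 and Lrp6. Of the 43 tested members, 2 lay above and 8 below all MSC libraries in every tumour line. Libraries did not overlap for 12.6% of all genes tested. Without MSC 1 the count of lower members was 7, and without MSC 3 it was 5. Calls among all genes fell too, from 1147 to 349 without MSC 1 and to 304 without MSC 3. Wnt16, Sfrp1, Rspo2, Lgr5, Nkd2 and Tcf7 were called with any 1 of the 13 libraries left out.

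**Figure D2:**
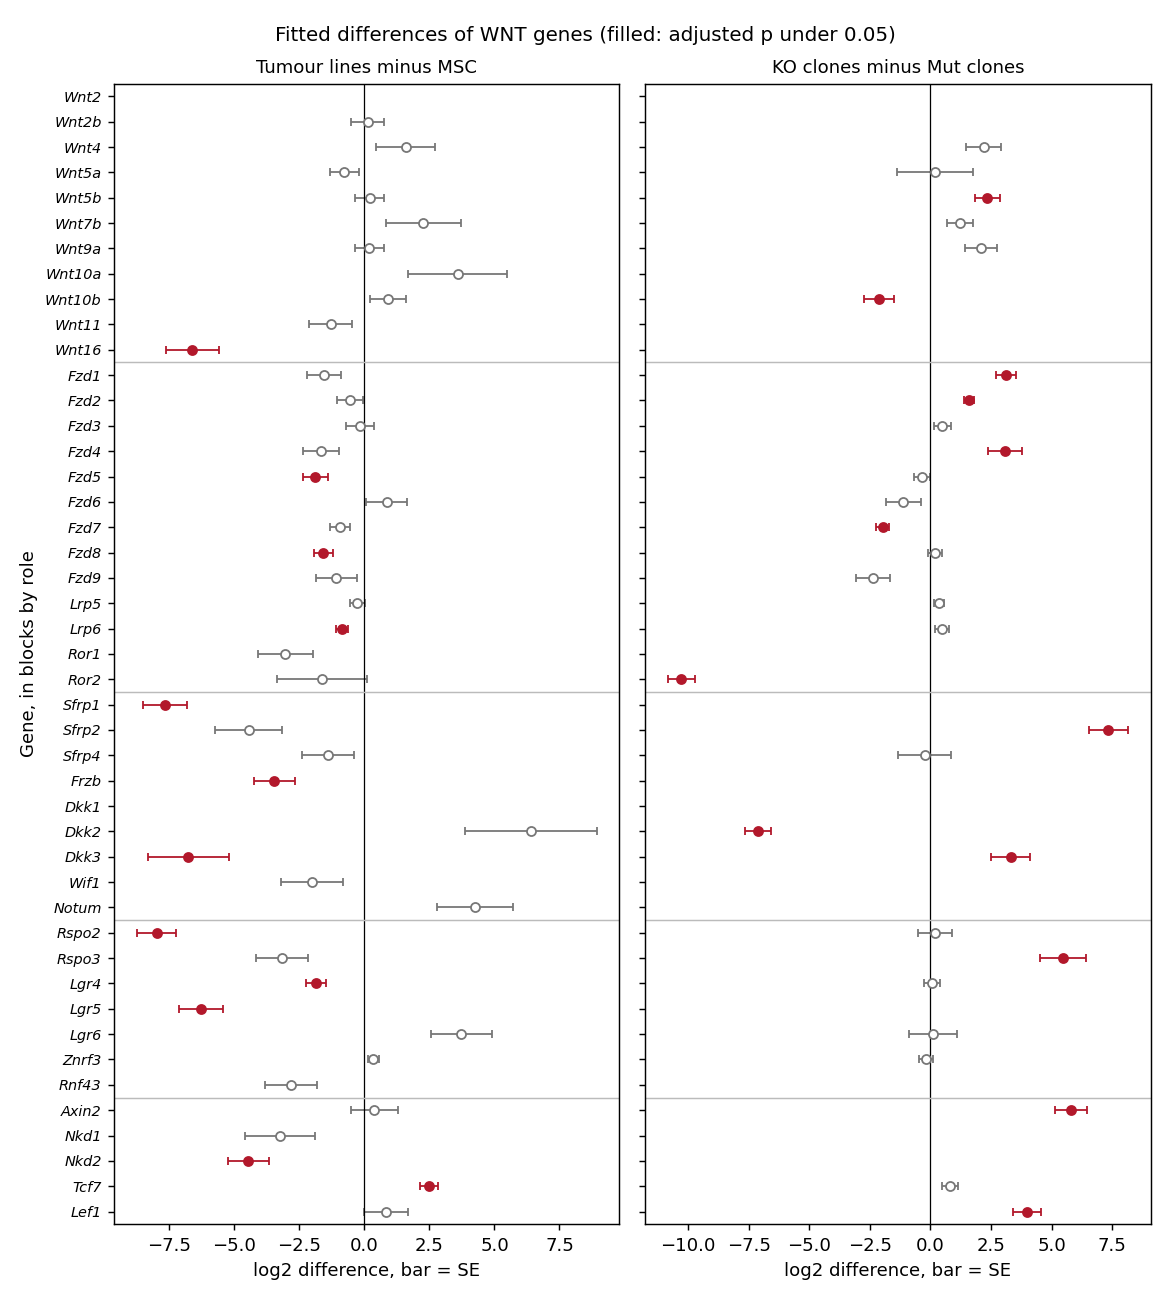
Fitted log2 difference of each tested WNT gene, with its standard error as a bar, for tumour lines minus MSC (left) and KO clones minus Mut clones (right); filled points have an adjusted p under 0.05 and untested genes have no point. On the left 11 filled points lie below 0 and 1, Tcf7, above; on the right 9 lie above and 4 below, of which Ror2 and Rspo3 rest on 1 count in the lower group, so their fitted size is not a measure of the change.

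In the R-spondin axis 3 of the 7 genes fell. Rspo2 (chromosome 15, 43020788 to 43171594), a secreted ligand of Lgr receptors, was counted at 171, 153 and 400.1 CPM in MSC 1, 2 and 3. In tumour lines it had a lowest value of 0.0650, a median of 0.791 and a highest value of 4.02 CPM. Every tumour line was thus far below every MSC library, and the fitted log2 difference was -7.99 (SE 0.75; adjusted p = 0.000145). Lgr5 (chromosome 10, 115450314 to 115587780), an R-spondin receptor also used as a stem cell marker, was at 35.9, 62.4 and 95.9 CPM in MSC and at 0, 0.512 and 2.39 CPM (lowest, median and highest) in tumour lines. Lgr5 fell by 6.29 (SE 0.85; adjusted p = 0.00107). Lgr4, a receptor of the same family, was at 49.6, 37.6 and 73.1 CPM in MSC and at 4.93, 12.6 and 29.4 CPM in tumour lines. Lgr4 fell by 1.86 (SE 0.39; adjusted p = 0.0118). That call was lost without MSC 3. The third receptor, Lgr6, was at 0.335, 4.36 and 0.987 CPM in MSC and at 0.701, 21.7 and 64.9 CPM in tumour lines. Its difference of 3.72 (SE 1.17; adjusted p = 0.0663) did not pass the threshold, and TL2 2b at 0.701 CPM and TL1 2a at 4.07 CPM overlapped MSC. Lgr6 was called higher with DESeq2, or with TL1 2a or TL2 2b left out. Rspo3 averaged 6.69 CPM over MSC and 0.766 CPM over tumour lines (adjusted p = 0.0633). Rspo3 was called lower with DESeq2, limma-voom, all 17 libraries in 1 fit, tumour lines summed per number, or TL2 2a or TL1 3a left out. The ubiquitin ligase gene Znrf3 lay between 11.8 and 23.9 CPM in all MSC and tumour line libraries, with a difference of 0.33 (SE 0.21), and Rnf43 was at or below 2.18 CPM in all of them.

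Secreted inhibitors were the most abundant members in MSC, and 3 of the 8 that could be tested fell. Sfrp1 (chromosome 8, 23411383 to 23449632), which binds WNT ligands, was at 221, 323 and 314 CPM in MSC. It was at 0.225, 0.844 and 9.63 CPM (lowest, median and highest) in tumour lines, and the highest was TL1 3a. The difference was -7.67 (SE 0.85; adjusted p = 0.000274). Dkk3, a member of the Dickkopf family whose action on the pathway is less settled than that of Dkk1 and Dkk2, was at 450, 349 and 430 CPM in MSC. In tumour lines it was at 0.0657, 0.605 and 142 CPM. The highest value was again TL1 3a, and the next was 2.70 CPM in TL1 2b. Dkk3 fell by 6.78 (SE 1.56; adjusted p = 0.0196), a call lost without MSC 1 or MSC 3, with tumour lines summed per number (-4.65; adjusted p = 0.145) and with TL1 alone (-4.01; adjusted p = 0.160). Without TL1 3a the difference was -9.18 (SE 0.69; adjusted p = 2.55e-05). Frzb, a further secreted WNT-binding protein, fell by 3.47 (SE 0.78; adjusted p = 0.0176) from 3.68, 5.01 and 13.4 CPM in MSC to at most 1.57 CPM in tumour lines. This call was lost without MSC 3.

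Sfrp2, the member with the highest level in MSC, narrowly missed the threshold. It was at 714, 862 and 1863 CPM in MSC and at 2.89, 14.4 and 778 CPM in tumour lines, and only TL1 3a, the highest, lay within the MSC range; the next line was TL2 2a at 43.6 CPM. The difference was -4.45 (SE 1.29; adjusted p = 0.0510). Without TL1 3a the difference was -6.08 (SE 0.79; adjusted p = 0.000900). Sfrp2 was also called lower with RLE size factors, DESeq2, limma-voom, all 17 libraries in 1 fit, the title number as a block, or TL1 2a left out. Leaving out TL1 3a added Rnf43, Ror1 and Rspo3 to the lower members and Notum to the higher ones, for counts of 15 lower and 2 higher. Calls among all genes rose from 1147 to 1532 without this line. Notum, an enzyme that inactivates WNT proteins by removing their lipid, was the uncalled member that lay above all MSC libraries in every tumour line. It was at 0.251, 0.242 and 0.607 CPM in MSC and at 0.674, 3.72 and 40.6 CPM in tumour lines (difference 4.25, SE 1.46; adjusted p = 0.0876). Besides the fit without TL1 3a, Notum was called higher with DESeq2 and with tumour lines summed per number. Dkk2, which blocks Lrp5 and Lrp6, was at most 0.404 CPM in MSC and ranged from 0.134 to 291 CPM in tumour lines. Its difference of 6.40 (SE 2.53) had an adjusted p of 0.130. Sfrp4 and Wif1 were not called.

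Ligands mostly differed by less than the spread between libraries, and 1 of 10 was called. Wnt16, a ligand known from bone, was at 0.920, 1.70 and 9.64 CPM in MSC, had no count in 7 of the 10 tumour lines and reached 0.277 CPM in TL1 3a. It fell by 6.61 (SE 1.00; adjusted p = 0.00213). Wnt10b, which favours bone formation in marrow stroma, was the ligand with the highest level per kilobase in tumour lines. Wnt10b was at 15.8, 37.8 and 16.1 CPM in MSC and at 8.12, 41.3 and 92.4 CPM in tumour lines, and these ranges overlapped (difference 0.91, SE 0.69; adjusted p = 0.423). Wnt5a, a ligand of the branch without beta-catenin, was at 28.9 to 33.4 CPM in MSC and spread from 2.32 CPM in TL1 3b to 40.5 CPM in TL2 1. The related ligand Wnt5b differed by 0.20 (SE 0.55), and its MSC range of 2.34 to 4.77 CPM lay within the tumour line range of 1.49 to 7.27 CPM. Wnt10a spread from 0.299 to 58.0 CPM among the lines and Wnt7b from 0.490 to 76.5 CPM. Their differences of 3.59 (SE 1.90) and 2.26 (SE 1.45) were not called. Exons of Wnt7b overlap those of AU022754, a gene on the other strand that was counted as well. Without a stated strand setting, what this overlap did to the Wnt7b counts is not known. Wnt2b, Wnt4, Wnt9a and Wnt11 were not called either.

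Of the 13 receptors and coreceptors, 12 had a negative difference and 3 were called, each with a difference of less than 2 on the log2 scale. Fzd5, a Frizzled of the beta-catenin branch, was at 52.2, 26.7 and 66.6 CPM in MSC. It was at 5.61, 9.08 and 37.6 CPM in tumour lines, where TL2 3 was the highest and overlapped MSC (difference -1.89, SE 0.46; adjusted p = 0.0270). The related Fzd8 was at 48.5, 36.2 and 89.1 CPM in MSC and at 11.4, 17.4 and 40.6 CPM in tumour lines, with TL1 3a overlapping MSC (difference -1.58, SE 0.36; adjusted p = 0.0184). The coreceptor Lrp6 was at 112, 120 and 170 CPM in MSC and at 44.5, 65.1 and 112 CPM in tumour lines (difference -0.85, SE 0.24; adjusted p = 0.0423). All 3 calls were lost without MSC 1 or MSC 3 and when tumour lines were summed per number, and Lrp6 also without MSC 2, TL1 1a, TL1 1b, TL1 2a or TL2 3. Its partner Lrp5 differed by -0.27 (SE 0.30). Fzd2, the receptor with the highest level, was at 133, 158 and 163 CPM in MSC and at 30.2, 73.2 and 201 CPM in tumour lines, and was not called (difference -0.55, SE 0.49; adjusted p = 0.501). Fzd1, Fzd3, Fzd4, Fzd6, Fzd7 and Fzd9 were not called. Ror1 and Ror2, receptors of the branch without beta-catenin, had differences of -3.04 and -1.64 with adjusted p of 0.0903 and 0.573. Both were called lower with limma-voom (adjusted p = 0.00743 and 0.0202) and with the title number as a block (0.0486 and 0.0126).

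**Figure D3:**
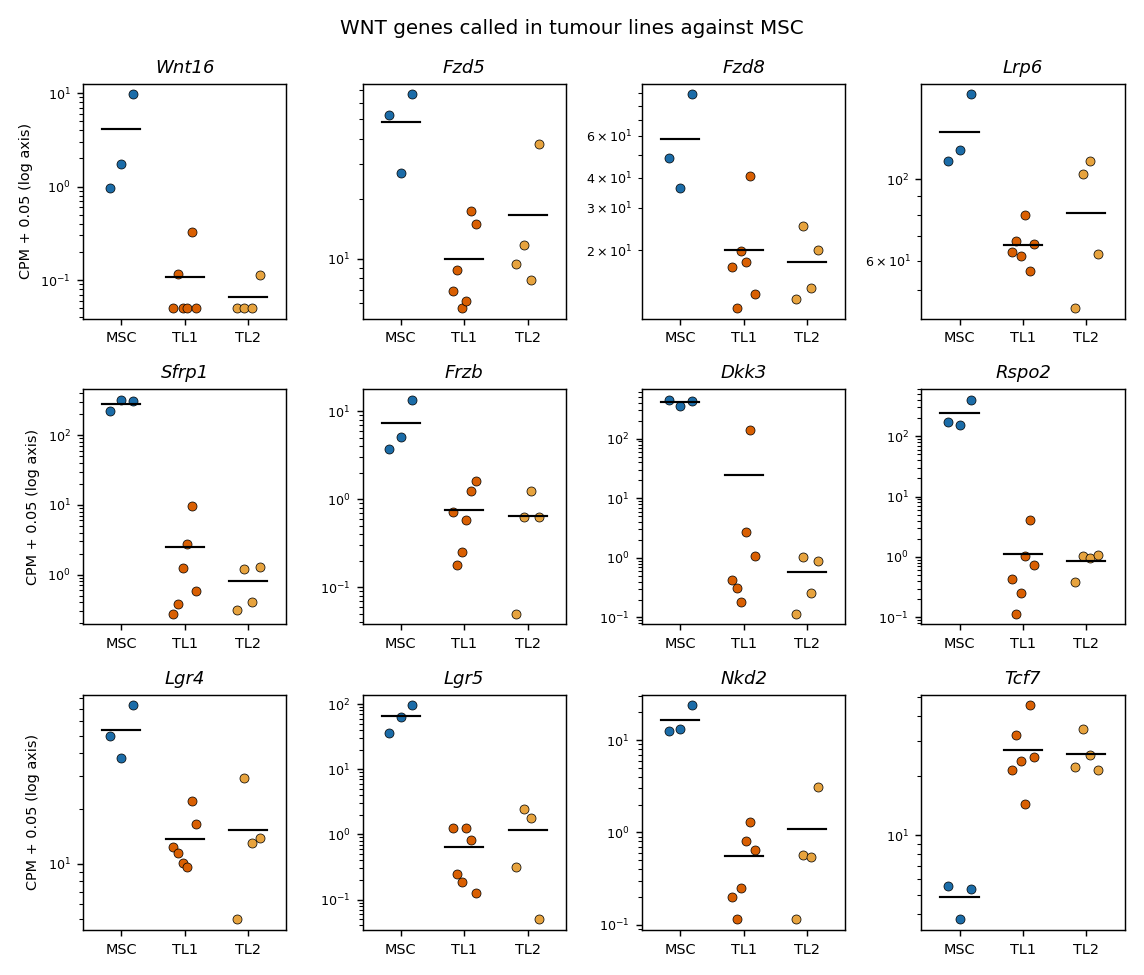
CPM (plus 0.05, log axis) of the 12 WNT genes called between tumour lines and MSC; each point is a library and each bar a group mean, for 3 MSC, 6 TL1 and 4 TL2 libraries. Tcf7 is above MSC in all 10 lines, at 14.3 CPM or more, Rspo2, Sfrp1 and Lgr5 are below MSC in all 10, and the single high TL1 point of Dkk3, at 142 CPM, is TL1 3a.

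Nuclear factors and feedback genes did not move together. Tcf7 (chromosome 11, 52246527 to 52283383), which binds DNA with beta-catenin, was at 5.52, 3.72 and 5.31 CPM in MSC and at 14.3, 24.2 and 45.4 CPM in tumour lines. All 10 tumour lines were above all 3 MSC libraries, and Tcf7 rose by 2.47 (SE 0.35; adjusted p = 0.00154). Lef1, the related factor, was at 7.28, 6.95 and 3.64 CPM in MSC and at 0.450, 10.5 and 20.1 CPM in tumour lines, with no call (difference 0.83, SE 0.83; adjusted p = 0.550). Nkd2 (chromosome 13, 73818534 to 73847631), which binds Dishevelled and dampens the pathway, was at 12.5, 13.2 and 23.8 CPM in MSC and at 0.0650, 0.504 and 3.09 CPM in tumour lines. No line reached the MSC range, and Nkd2 fell by 4.47 (SE 0.80; adjusted p = 0.00540). Nkd1 had a difference of -3.25 (SE 1.36; adjusted p = 0.151); TL1 1b, at 11.6 CPM, overlapped MSC. Axin2, often read as a direct target of beta-catenin, was at 1.42, 7.03 and 3.04 CPM in MSC and at 0.193, 3.83 and 15.6 CPM in tumour lines. The ranges overlapped, with a difference of 0.38 (SE 0.91; adjusted p = 0.814).

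RefSeq promoter windows of GRCm38.p6 were at hand for 28 of the 45 members, 36 windows in all. The 250 bases before the start held a median of 15.5 CpG dinucleotides per member window, against 6 for all 32851 windows. Shown here are those of Ror2, Nkd2 and Lef1, 3 genes that were near 0 in some groups and clearly counted in others. They are written from 5′ to 3′ along each gene, and capitals mark each CpG.
Ror2, chr13:53286125-53286374, minus strand: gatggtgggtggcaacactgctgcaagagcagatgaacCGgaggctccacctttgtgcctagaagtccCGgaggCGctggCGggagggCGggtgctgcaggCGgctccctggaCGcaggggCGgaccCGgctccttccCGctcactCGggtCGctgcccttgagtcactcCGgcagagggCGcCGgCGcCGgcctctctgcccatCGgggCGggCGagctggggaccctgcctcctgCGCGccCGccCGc
Nkd2, chr13:73847632-73847881, minus strand: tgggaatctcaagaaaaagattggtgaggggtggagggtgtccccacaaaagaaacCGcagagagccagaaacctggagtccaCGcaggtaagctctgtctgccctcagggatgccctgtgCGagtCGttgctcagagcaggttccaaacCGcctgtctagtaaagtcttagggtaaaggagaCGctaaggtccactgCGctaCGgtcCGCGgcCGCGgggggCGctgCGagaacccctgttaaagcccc
Lef1, chr3:131110047-131110296, plus strand: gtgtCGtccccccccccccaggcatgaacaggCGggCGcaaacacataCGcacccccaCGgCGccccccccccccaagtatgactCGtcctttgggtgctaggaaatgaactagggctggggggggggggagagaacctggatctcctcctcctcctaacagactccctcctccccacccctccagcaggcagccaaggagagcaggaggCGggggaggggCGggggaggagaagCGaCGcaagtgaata
The windows shown hold 24, 14 and 11 CpG dinucleotides. Lef1 also has windows at other starts, not shown. With the 50 bases after the start included, those hold 21, 8 and 5, and the Lef1 window shown holds 18. The core of the motif bound by Tcf and Lef factors, CTTTGAT, was searched on both strands in windows of 250 bases before and 50 bases after the start. It was found in 1 window of Wnt5b and 1 of Wnt11, 5.56% of the member windows, and in 3.73% of all windows. A match or its absence describes these letters only.

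A fixed list of 67 other genes of the pathway put the members beside its remaining parts. Of the 48 that could be tested, 5 were lower and 4 higher in tumour lines, 18.8% called, against 8.65% of all genes tested. The lower genes were Pygo1, a nuclear cofactor of beta-catenin (difference -3.15, SE 0.77), Prickle2, of the planar polarity branch (-2.93, SE 0.37), Tcf7l1, a mostly repressing factor of the Tcf family (-2.47, SE 0.31), the cofactor Bcl9l (-1.50, SE 0.26) and the receptor Ryk (-1.11, SE 0.20). The higher genes were the corepressor Tle1 (1.26, SE 0.26), Dvl1, which relays the signal from Frizzled (0.79, SE 0.16), the beta-catenin inhibitor Ctnnbip1 (0.72, SE 0.19) and the cofactor Pygo2 (0.58, SE 0.16). Within the Tcf and Lef family, Tcf7 was thus higher, Tcf7l1 lower and Lef1 not called. Higher genes numbered 1 without MSC 1 or MSC 2, 0 without MSC 3, and 2 without TL1 2a or TL1 3b. Lower genes numbered 3 without MSC 1 and 8 without TL1 3a. Calls among all genes were 349, 687 and 304 without MSC 1, 2 and 3, and 1532 without TL1 3a.

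TL2 was compared with TL1 to ask whether passage through a further tumour changed these genes. No member was called by edgeR (0 of 43), and 2 had an unadjusted p under 0.05. Among all 13262 genes 0 were called, 0%, and 246 had an unadjusted p under 0.05. DESeq2 and limma-voom called 0 members too, with 1 and 0 at an unadjusted p under 0.05. The 2 members were Dkk2 and Dkk3, and both differences rested on a single line. Dkk2 was at 5.85, 0.194, 1.05 and 291 CPM in TL2 1, 2a, 2b and 3, and at most 12.998 CPM in TL1. Dkk3 was at most 0.971 CPM in TL2, and in TL1 only TL1 3a, at 142 CPM, was above 2.70 CPM. Of the 43 members, 17 had a positive and 26 a negative difference, with a median of -0.25 against 0.02 for all tested genes. Tcf7 lay at 26.9 ± 10.7 CPM in TL1 (SD, n = 6) and 25.8 ± 5.97 CPM in TL2 (n = 4), a difference of -0.06 (SE 0.29).

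The number in the titles parted the tumour lines for some members, in a comparison that was added after the values were seen. Across the 10 tumour lines, with generation in the fit, edgeR called 5 of 39 tested members by number, 12.8%, and 2.09% of all 12948 genes tested. Ror2 (chromosome 13, 53109317 to 53286124) was at 30.3, 31.2 and 42.6 CPM in TL1 3a, TL1 3b and TL2 3. In the 7 lines numbered 1 and 2 it was at most 0.911 CPM, while MSC were at 38.6, 30.5 and 33.2 CPM. Lines numbered 3 thus lay at about the MSC level and the others near 0 (adjusted p = 0.00935). Dkk2 (chromosome 3, 132085266 to 132180304) reached 10.6, 12.998 and 291 CPM in TL1 3a, TL1 3b and TL2 3 and at most 5.85 CPM in the others (adjusted p = 0.00906). Fzd5 and Fzd7 were highest in the lines numbered 3, at 14.9 to 37.6 CPM and 60.1 to 107 CPM, against at most 11.7 and 49.98 CPM in the others (adjusted p = 0.0430 and 0.0439). Fzd6 was at 2.30 to 3.52 CPM in the lines numbered 1 and at 11.8 CPM or more in the others (adjusted p = 0.0414). Each of these tests treats lines of a number as replicates. Leaving out any 1 line ended the call of Fzd5, and leaving out any except TL1 3a ended those of Fzd6 and Fzd7. Ror2 and Dkk2 were called without any 1 of 9 lines and lost without TL2 3, when 0 members were called. The labels do not say what the number stands for.

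**Figure D4:**
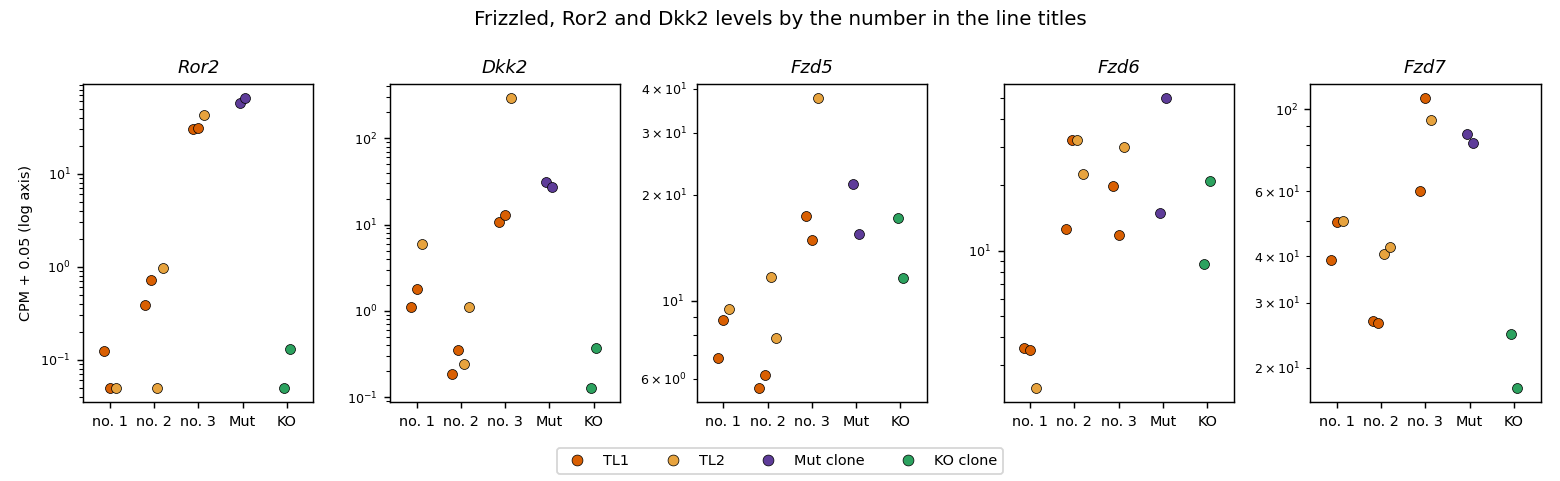
CPM (plus 0.05, log axis) of Ror2, Dkk2, Fzd5, Fzd6 and Fzd7 in the 10 tumour lines by the number in their titles, and in the 2 Mut and 2 KO clones; each point is a library, coloured by group. Ror2 is at 30.3 CPM or more in the lines numbered 3 and in the Mut clones, and at most 0.911 CPM in the other lines and the KO clones.

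The comparison of KO with Mut clones asked what differs when mutant p53 is removed. In the KO clones the feedback gene Axin2, the factor Lef1, the inhibitor Sfrp2 and 3 Frizzled receptors were higher, and Ror2, Dkk2, Fzd7 and Wnt10b were lower. Of 30 members tested, 9 were higher and 4 lower, 43.3% called, while 26.1% of all 12238 genes tested were called, 14.2% higher and 12% lower. For all 13 called members the 2 KO and 2 Mut clones did not overlap. Of the 30 tested members, 15 lay higher and 5 lower in KO clones without overlap. The clones did not overlap for 69.7% of all genes tested. The median difference was 0.42 for the members and 0.00 for all tested genes. The spread in this fit comes from 2 clones on each side. With all 17 libraries in 1 fit only Axin2 was still called (1 higher and 0 lower). Calls among all genes were 820 in that fit and 3200 in the fit of the clones alone. Higher members numbered 5 without Mut clone 1, Mut clone 2 or KO clone 2 and 7 without KO clone 1, when the lone clone is taken to vary like the pair, and lower members numbered 3 or 4. The labels do not say that KO and Mut clones come from the same line, and the part of the line of origin was not tested.

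Among feedback genes and nuclear factors, Axin2 (chromosome 11, 108917828 to 108950783) was at 15.1 and 15.0 CPM in KO clones and at 0.435 and 0.0796 CPM in Mut clones. The log2 difference of Axin2 was 5.80 (SE 0.66; adjusted p = 0.00215). The KO values lay near TL1 3a at 15.6 CPM, the highest tumour line, and the Mut values near TL2 3 at 0.193 CPM, the lowest. Lef1 (chromosome 3, 131110297 to 131224357) was at 4.88 and 8.53 CPM in KO clones and at 0.362 and 0.478 CPM in Mut clones (difference 3.99, SE 0.60; adjusted p = 0.00580). Of the 13 MSC and tumour line libraries, TL2 3 at 0.450 CPM lay within the Mut range and all others were above it. Tcf7 was at 27.5 and 27.0 CPM in KO and 11.3 and 20.5 CPM in Mut clones, which was not called (difference 0.80, SE 0.34; adjusted p = 0.125). Nkd1 and Nkd2 did not pass the count filter. Axin2 and Lef1 each overlap an annotated antisense gene that was not counted separately, as do Sfrp2, Rspo3, Fzd5, Fzd6, Wnt5a, Wnt11 and Notum. Without a stated strand setting reads of both strands cannot be told apart for these genes.

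Receptors changed in both directions. Fzd1 was at 48.3 and 36.9 CPM in KO clones and at 3.12 and 6.77 CPM in Mut clones (difference 3.13, SE 0.42; adjusted p = 0.00411). Fzd2 was at 148 and 140 CPM against 50.2 and 46.4 CPM (difference 1.59, SE 0.21; adjusted p = 0.00356). Fzd4, low throughout, was at 2.28 and 4.30 CPM against 0.217 and 0.557 CPM (difference 3.09, SE 0.71; adjusted p = 0.0224). All 3 Frizzled genes were at a higher mean in MSC than in the tumour lines, a difference that was not called. In the other direction, Fzd7 was at 24.6 and 17.6 CPM in KO clones and at 85.9 and 81.3 CPM in Mut clones (difference -1.97, SE 0.26; adjusted p = 0.00362). Ror2 had 0 and 0.0797 CPM in KO clones, 1 count in all, and 57.5 and 65.0 CPM in Mut clones. The Mut to KO ratio was 1543 (95% counting interval 277 to 60998; adjusted p = 0.000132), and the interval covers counting error only. Lrp5, Lrp6, Fzd3, Fzd5, Fzd6, Fzd8 and Fzd9 were not called, and Ror1 was not tested.

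Secreted inhibitors and ligands also differed. Sfrp2 (chromosome 3, 83765750 to 83774314) was at 344 and 125 CPM in KO clones against 0.797 and 2.15 CPM in Mut clones (difference 7.34, SE 0.80; adjusted p = 0.00496). The KO clones were above 9 of the 10 tumour lines for this gene and below all MSC libraries. Dkk3 was at 2.44 and 3.67 CPM against 0.507 and 0.0796 CPM (difference 3.32, SE 0.81; adjusted p = 0.0269), far under the 349 CPM or more of MSC. Dkk2 had the opposite order, with 0.0787 and 0.319 CPM in KO and 31.1 and 27.1 CPM in Mut clones (difference -7.12, SE 0.54; adjusted p = 0.000460). Rspo3 was at 1.81 and 2.31 CPM in KO clones and had 1 count in the Mut clones, a KO to Mut ratio of 54.3 (counting interval 9.32 to 2185; adjusted p = 0.00898). Among ligands, Wnt5b was at 4.33 and 3.43 CPM in KO and 0.725 and 0.796 CPM in Mut clones (difference 2.35, SE 0.52; adjusted p = 0.0201). Wnt10b was at 7.16 and 1.91 CPM in KO and 19.4 and 20.5 CPM in Mut clones (difference -2.12, SE 0.60; adjusted p = 0.0477). The calls of Wnt5b, Fzd4 and Dkk3 were lost without any 1 of the 4 clones, and those of Rspo3 and Wnt10b without any except KO clone 1. Rspo2 was at most 1.34 CPM and Lgr5 at most 0.157 CPM in all 4 clones.

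**Figure D5:**
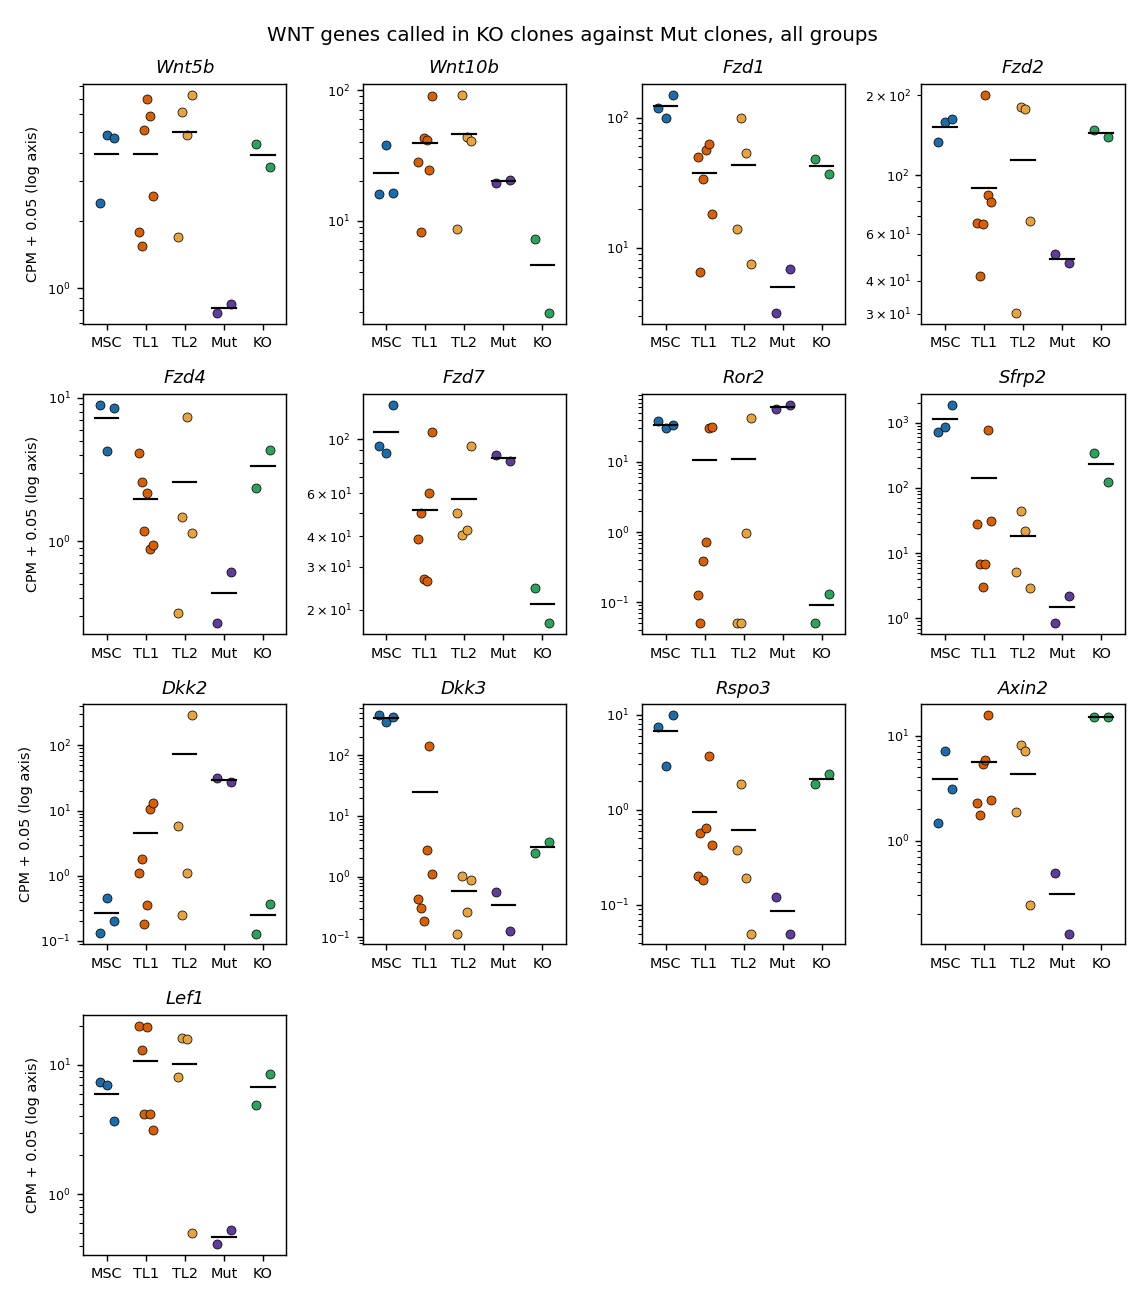
CPM (plus 0.05, log axis) of the 13 WNT genes called between KO and Mut clones, in all 5 groups; each point is a library and each bar a group mean, for 3 MSC, 6 TL1, 4 TL2, 2 Mut and 2 KO libraries. Axin2 is at 15.1 and 15.0 CPM in KO clones and at most 0.435 CPM in Mut clones, and for Lef1 the Mut clones lie with the lowest tumour line.

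Levels in the clones were set beside those of the numbered lines. Mut clones, like the lines numbered 3, had Ror2 at 30.3 CPM or more, Dkk2 at 10.6 CPM or more and Fzd7 at 60.1 CPM or more. KO clones, like the 7 lines numbered 1 or 2, had Ror2 at most 0.911 CPM, Dkk2 at most 5.85 CPM and Fzd7 at most 49.98 CPM. These genes were picked as called both by number and between the clones. Ror2 in Mut clones, at 57.5 and 65.0 CPM, was above all tumour lines, which reached 42.6 CPM. Fzd7 in KO clones, at 24.6 and 17.6 CPM, was below all tumour lines, the lowest being at 26.3 CPM. Over 13262 genes, deviations of the Mut clones from the mean of the tumour lines correlated with those of the lines numbered 3 at r = 0.372 and 0.316, and negatively with those numbered 1 and 2. For the KO clones r was 0.187 and 0.233 with number 2, 0.0896 and 0.0825 with number 1, and -0.253 and -0.29 with number 3. These are descriptions across genes, which are not independent replicates, and both sides share the subtracted mean of the tumour lines. The other 2 members called by number did not follow this order. Fzd5 was at 21.4 and 15.4 CPM in Mut and 17.1 and 11.6 CPM in KO clones, where KO clone 1 lay within the range of the lines numbered 3. Fzd6 was at 14.8 and 50.1 CPM in Mut and 8.66 and 20.8 CPM in KO clones, which overlap. The labels do not give the clones' line of origin. Removal of p53 and a different line therefore cannot be told apart for Ror2, Dkk2, Fzd7 or any other gene called between the clones.

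Of the 67 other pathway genes, 46 could be tested in the clones. In KO clones 17 were higher and 4 lower, 45.7% called, against 26.1% of all genes tested. The largest increases were in the corepressor Tle4, with no count in the Mut clones and at least 54.6-fold higher, and in Dact1, a Dishevelled partner (difference 7.73, SE 0.51). Fst, the secreted activin antagonist follistatin (5.79, SE 0.45), the matricellular gene Wisp2 (5.34, SE 1.02), Lrp4 (5.23, SE 0.39) and Porcn, the enzyme that adds lipid to WNT proteins (3.73, SE 0.40), followed. The 4 lower genes were Myc (-3.76, SE 0.22), Apc2 (-2.84, SE 0.70), the cyclin D1 gene Ccnd1 (-2.71, SE 0.37) and Tle1 (-1.25, SE 0.29). Myc was at 137 and 136 CPM in KO clones and at 1762 and 1986 CPM in Mut clones. Of 9 tested genes listed as other reported targets of the pathway, 4 were higher in KO clones, namely Fst, Wisp2, Wisp1 (2.41, SE 0.30) and Ephb3 (1.74, SE 0.33), and Myc and Ccnd1 were lower. With all 17 libraries in 1 fit, 9 of these other genes were called, and 12 or 13 with any 1 clone left out.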

How the data were processed

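RNA was sequenced as single-end reads of 60 bases from 17 libraries. The authors' deposited table gives counts per gene, and per the submitters' processing notes cutadapt, TopHat2 2.0.10, HTSeq 0.6.1p1, DESeq2 1.6.3 and the mm10 build were used. The sources used here give neither the gene annotation nor the strand setting. A further 4 columns of the table match no sample and were not used. Counts were tested with edgeR 4.0.16 (filterByExpr with a minimum count of 10, TMM library sizes, robust quasi-likelihood fits, Benjamini-Hochberg adjustment over all tested genes, threshold 0.05) in R 4.3.3. MSC and tumour lines entered 1 fit of 13 libraries, in which the mean of TL1 and TL2 was set against MSC and TL2 against TL1, and the clones a separate fit of 4. DESeq2 1.42.0, limma-voom (limma 3.58.1), other scalings, filters and groupings were alternatives. Scripts were tested on simulated counts. Every pair of libraries within a group differed by more than sampling noise. Same-numbered TL1 and TL2 libraries deviated together (r = 0.461, 0.376 and 0.51), but MSC and tumour lines of a number did not in every case. The number was left out of the main fit, which thus takes lines of a number as independent. A block for the number and sums per number were among the alternatives. Values are given in each library for members called in any comparison and the most abundant member of each role, and other pathway genes are named when called, up to 6 per comparison and direction. The members and all lists were chosen with earlier results of these data known. Ratios against a group with 1 count carry exact 95% counting intervals, and a group with 0 counts was set to 3 counts over the group for a bound. PCR copies are not independent, so these cover counting error only.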

Additional observations from a re-analysis of the deposited data

Results flagged for a closer look

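Among 80 groups of TL1 or TL2 values of the members, 23 held a library far from the others of its group, and 14 of these were in TL1 3a. Such a mark falls on about 1 in 20 groups by chance where values follow a normal distribution. That was not checked for the CPM values used here, so 23 of 80 cannot be set against that share. The members of a library are also not independent of each other.

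TL1 3a was the highest TL1 library for inhibitors, with Sfrp2 at 777.7 CPM, Dkk3 at 141.9, Notum at 40.58, Sfrp4 at 20.5, Sfrp1 at 9.625 and Wif1 at 2.077 CPM. For Sfrp2 the next TL1 library was at 31.3 CPM and for Dkk3 at 2.705 CPM. It was also highest for the ligands Wnt7b at 76.45 CPM and Wnt2 at 1.454 CPM, for the receptors Fzd8 at 40.65 and Ror1 at 3.739 CPM, for Rspo2 at 4.016, Rspo3 at 3.601 and Rnf43 at 1.662 CPM, and for Axin2 at 15.58 CPM. TL1 3a lay within the MSC range for Sfrp2, Sfrp4, Wif1, Fzd8, Ror1, Rspo3 and Rnf43. It lay above all MSC libraries for Wnt2, Wnt7b, Notum and Axin2, and below all of them for Dkk3, Sfrp1 and Rspo2.

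TL2 3 was the highest TL2 library for Dkk2 at 291.1 CPM, Ror2 at 42.64, Fzd5 at 37.56 and Nkd2 at 3.087 CPM. TL1 2b was highest in TL1 for Fzd2 at 201.3 CPM and Wnt10a at 29.37 CPM. TL2 2b was highest in TL2 for Fzd4 at 7.286 CPM, and TL2 1 was highest for Nkd1 at 1.642 CPM and lowest for Rspo2 at 0.3284 CPM.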

How the results depend on the processing

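Wnt16, Sfrp1, Rspo2, Lgr5 and Tcf7 kept their direction and call between tumour lines and MSC under every alternative that gave a value; a stricter filter left Wnt16 untested, and DESeq2 gave no adjusted p for Sfrp1 and Dkk3. Calls among all genes, 1147 in the main fit, were 1346 with limma-voom, 1686 with a replicate block and 546 with TL2 alone. They were 2208 with DESeq2 and 304 to 1532 with any 1 library left out. The count of lower members, 11, was 18 with limma-voom, 17 with a replicate block, 5 with TL2 alone and 5 to 15 with any 1 library left out. The count of higher members, 1, was 3 with DESeq2, 2 with a replicate block, 2 with tumour lines summed per number, and 1 to 2 with any 1 library left out. The replicate block added Fzd7, Nkd1, Rnf43, Ror1, Ror2 and Sfrp2 to the lower members and Wnt10a to the higher ones, and limma-voom added Fzd4, Nkd1, Rnf43, Ror1, Ror2, Rspo3 and Sfrp2 to the lower. TL2 and TL1 differed in 0 members under every alternative, the replicate block included. Clones carry no numbers, so no block could be fitted there. In the clones, with all 17 libraries in 1 fit, calls among all genes went from 3200 to 820. The 9 higher members became 1 and the 4 lower became 0. With any 1 clone left out they were 5 to 7 and 3 to 4. Rspo2, not called there at 0.21, was -0.71 without KO clone 1 and 0.76 without KO clone 2. The 5 members called by the number in the titles became 0 to 4 with any 1 line left out. Of the other pathway genes, the 4 higher in tumour lines became 2 with no filter, 2 with TL1 alone, 2 with TL2 alone, and 0 to 5 with any 1 library left out. The 5 lower became 10 with DESeq2, 10 with limma-voom, 8 with all 17 libraries in 1 fit, 8 with lines summed per number, and 3 to 8 with any 1 library left out. The 21 called in the clones became 9 with all 17 libraries in 1 fit and 12 to 13 with any 1 clone left out. Scaling by library totals moved the median of all genes from 0.10 to 0.17 between tumour lines and MSC and from 0.00 to -0.13 between clones. The cause was not tested for any of these changes; leaving out a library leaves fewer samples. With 3 MSC libraries and 2 clones a side, the number of libraries limits these counts, and members under about 1 CPM rest on few reads.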
